A study of Homo sapiens with 6 samples.

Results

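The IGF binding proteins and IGF receptors are the 9 genes IGFBP1 to IGFBP7, IGF1R and IGF2R, chosen by name from 22091 gene IDs. RNA was sequenced from 3 human hepatocellular carcinoma lines, MHCC97L, MHCC97H and HCCLM3, after TGF-β1 at 2.5 ng/mL for 4 h and in control cultures of the same 4 h, in DMEM with serum and antibiotics. MHCC97L and MHCC97H are clones that were taken from a common parental line and differ in metastatic potential (low and high), and HCCLM3 came from lung metastases that MHCC97H cells formed in mice, so each is a single line and the 3 share a donor. Each line gave 1 library per condition, 6 in all. Library totals were 21257080 to 23242862 expected counts with TGF-β1 and 18485041 to 22854982 in control. The labels do not say that the libraries came from separate cultures, so p-values measure only the spread between these libraries, which may be technical.

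The insulin-like growth factors IGF1 and IGF2 circulate and reach cells bound to IGF binding proteins, secreted proteins that carry the growth factors, hold them away from their receptor or release them where proteases cleave the carrier. IGF1R is the tyrosine kinase receptor that passes the signal to IRS adaptors, PI3K and AKT, whereas IGF2R, which is also the cation-independent mannose 6-phosphate receptor, takes up IGF2 for breakdown in lysosomes and sorts lysosomal enzymes. The adult liver is the main source of circulating IGF1 and of IGFBP1, and it makes IGFALS, which holds IGF1 or IGF2 with IGFBP3 in the large complex of serum.

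Levels of a gene are given in CPM, counts divided by the TMM-scaled library size, and levels of different genes are compared only as CPM per kb of exon. Changes are log2 differences, given with a standard error (SE), from 1 fit over all 6 libraries and 14176 genes, with cell line and treatment as terms. Adjusted p-values come from the quasi-likelihood F test of edgeR, with the Benjamini-Hochberg method applied over those genes. A gene was called at an adjusted p under 0.05. Each SE was worked back from that test, as the size of the change divided by the square root of its F statistic. Similar ratios of change to SE can therefore go with unlike p-values in different genes. Of the 9 genes, 8 passed the filter on low counts; IGFBP7 did not, and IGFBP5 passed through the MHCC97 libraries alone, being at 0 counts in HCCLM3. For TGF-β1 the p measures how evenly the 3 lines responded. A difference between a pair of lines rests on the 2 libraries of each line, but its p takes the spread from all 6 libraries. The fit also moderates the spread of each gene by that of the other genes. Within a line there is no test, and the intervals given for the ratio of 2 counts are 95% exact intervals (conditional binomial) that cover counting error alone.

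Hepatocyte markers stood far apart in level: KRT8 was at 4744 to 6571 CPM in the TGF-β1 libraries and 4294 to 5251 CPM in the control libraries, but ALB was at 1.26 to 22.5 CPM with TGF-β1 and 1.43 to 22.9 CPM in control. Of 13 hepatocyte markers, 5, KRT8 and KRT18 among them, reached 5 CPM in every library, and APOA2 was at 0 in 5 of the 6. Markers of other cell types summed to 12.7 to 33.8 CPM (TGF-β1) and 11.7 to 34.7 CPM (control) over 9 genes of stellate cells and fibroblasts, with POSTN at 0 throughout. The 7 endothelial genes summed to 13.6 to 40.1 CPM (TGF-β1) and 16.8 to 46.9 CPM (control), and the 7 leukocyte genes, mostly CD68, to 119 to 268 CPM (TGF-β1) and 134 to 234 CPM (control), with C1QA at 0 throughout. The targets used to check exposure to the ligand were higher in the TGF-β1 libraries, among them PMEPA1 by 3.30 (SE 0.109, adjusted p 3.1e-06) and SMAD7 by 1.19 (SE 0.081, adjusted p 7.84e-05) on the log2 scale.

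Coordinates are those of GENCODE 29 on GRCh38. IGFBP1 (ENSG00000146678.9) lies on chromosome 7 at 45888357 to 45893668 on the plus strand and faces IGFBP3 (ENSG00000146674.14, 45912245 to 45921874, minus strand) across 18576 bases, so that their 3′ ends point at each other with no annotated gene between. IGFBP2 (ENSG00000115457.9, chromosome 2 at 216632828 to 216664436, plus strand) and IGFBP5 (ENSG00000115461.4, 216672105 to 216695525, minus strand) are arranged in the same way, 7668 bases apart. IGFBP4 (ENSG00000141753.6) lies on chromosome 17 at 40443461 to 40457731, IGFBP6 (ENSG00000167779.7) on chromosome 12 at 53097436 to 53102345, IGF1R (ENSG00000140443.13) on chromosome 15 at 98648539 to 98964530 and IGF2R (ENSG00000197081.12) on chromosome 6 at 159969099 to 160113507, all on the plus strand. IGFBP7 (ENSG00000163453.11) lies on chromosome 4 at 57030773 to 57110385 on the minus strand. IGFBP7 overlaps POLR2B, which is also counted in the files, and antisense transcripts overlap IGFBP5, IGF1R and IGF2R (AIRN). These overlaps are of whole gene spans, introns included, and overlap of exons was not checked. The sources used here do not give whether counting used strand. How far reads of these pairs can be told apart is therefore not known. Counts were whole numbers in all 6 libraries for 7 of the 9 genes. IGF2R and IGFBP7 had fractional counts, which can arise when a read that matches several places is divided. The tool that counted reads is not named, so the source of these fractions is not known.

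The promoters of the 4 genes called for TGF-β1, and that of IGFBP5, which had no count in HCCLM3, show the sequence just before each start. They are the 250 bases before the RefSeq start on GRCh38.p14, 5′ to 3′ on the gene's strand, without bases that fall in an annotated exon. Capitals mark matches to a TATA box (TATAAA) or a TEAD element (GGAATG), searched on both strands together with a SMAD element (CAGAC) and an AP-1 element (TGANTCA). IGFBP2 (chr2:216633170-216633394, plus strand), IGFBP4 (chr17:40443200-40443449, plus strand), IGFBP3 (chr7:45921275-45921522, minus strand), IGF2R (chr6:159968832-159969081, plus strand) and IGFBP5 (chr2:216695550-216695799, minus strand) read:
IGFBP2: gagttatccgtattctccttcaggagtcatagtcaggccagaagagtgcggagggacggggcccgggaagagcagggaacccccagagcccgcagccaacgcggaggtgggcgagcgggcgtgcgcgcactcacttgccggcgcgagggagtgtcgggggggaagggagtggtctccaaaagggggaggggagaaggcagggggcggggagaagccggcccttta
IGFBP4: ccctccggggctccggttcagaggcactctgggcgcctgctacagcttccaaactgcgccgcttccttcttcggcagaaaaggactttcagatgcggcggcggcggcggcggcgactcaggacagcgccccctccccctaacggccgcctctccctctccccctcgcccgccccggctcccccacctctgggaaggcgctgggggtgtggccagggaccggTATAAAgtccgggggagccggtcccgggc
IGFBP3: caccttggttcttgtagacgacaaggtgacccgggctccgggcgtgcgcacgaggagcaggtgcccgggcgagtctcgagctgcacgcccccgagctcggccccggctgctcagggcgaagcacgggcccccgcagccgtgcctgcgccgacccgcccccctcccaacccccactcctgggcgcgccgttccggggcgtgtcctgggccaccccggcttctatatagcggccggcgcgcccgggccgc
IGF2R: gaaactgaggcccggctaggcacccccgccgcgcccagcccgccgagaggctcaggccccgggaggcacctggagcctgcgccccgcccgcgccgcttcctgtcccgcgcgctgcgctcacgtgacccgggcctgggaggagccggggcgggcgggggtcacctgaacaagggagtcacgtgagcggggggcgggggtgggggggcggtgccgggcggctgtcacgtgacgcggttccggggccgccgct
IGFBP5: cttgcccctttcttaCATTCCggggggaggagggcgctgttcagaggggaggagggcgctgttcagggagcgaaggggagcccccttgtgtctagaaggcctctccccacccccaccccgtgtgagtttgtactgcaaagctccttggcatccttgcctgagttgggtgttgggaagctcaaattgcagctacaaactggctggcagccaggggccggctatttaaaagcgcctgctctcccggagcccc

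RefSeq promoters matched 7 of the 9 genes, and IGFBP2 had 3 of them, of which the one nearest its main GENCODE start was used. IGF2R and IGFBP3 had the sequences richest in G and C of those shown, at 79.2% and 75.8%, with 33 and 32 CpG pairs, whereas that of IGFBP5 had 61.2% and 8 pairs. IGFBP4 held a TATA box whose first base lies 29 bases before the start, and IGFBP5 held the TEAD letters as the reverse complement, 235 bases before the start. IGFBP6, whose window is mostly exon and is not shown, held GGAATG 101 bases before its start. Neither the SMAD nor the AP-1 letters were found in any of the 7 windows. Among 34943 RefSeq promoters of the same 250 bases, 38.0% held the SMAD letters, 6.59% the AP-1 letters, 11.9% the TEAD letters and 10.8% the TATA box.

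Per kb of exon, IGFBP4 had the highest mean of the 9 genes, at 106 ± 44.3 CPM per kb over the 6 libraries (SD). IGFBP6 had the next, at 72.4 ± 12.8. IGFBP3 (37 ± 20.1), IGFBP1 (29.6 ± 17.4), IGFBP2 (19.4 ± 15.5) and IGF2R (18.2 ± 3.37 CPM per kb) followed, with ranges over libraries that overlapped between neighbours. IGF1R stood at 7.33 ± 1.05, IGFBP5 at 0.729 ± 0.583 and IGFBP7 at 0.0284 ± 0.0193 CPM per kb. The range of IGF1R overlapped neither that of IGF2R nor that of IGFBP5, whereas IGFBP5 and IGFBP7 overlapped, since IGFBP5 was at 0 in HCCLM3. In HCCLM3, IGFBP6 stood above IGFBP4, at 82.2 against 59.1 CPM per kb with TGF-β1 and 76.7 against 56.2 CPM per kb in control. With the length of the longest transcript in place of all exons, the mean of IGFBP3 came to 70.1 CPM per kb. That of IGF2R (23.1) then stood above that of IGFBP2 (20.9).

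**Figure D1:**
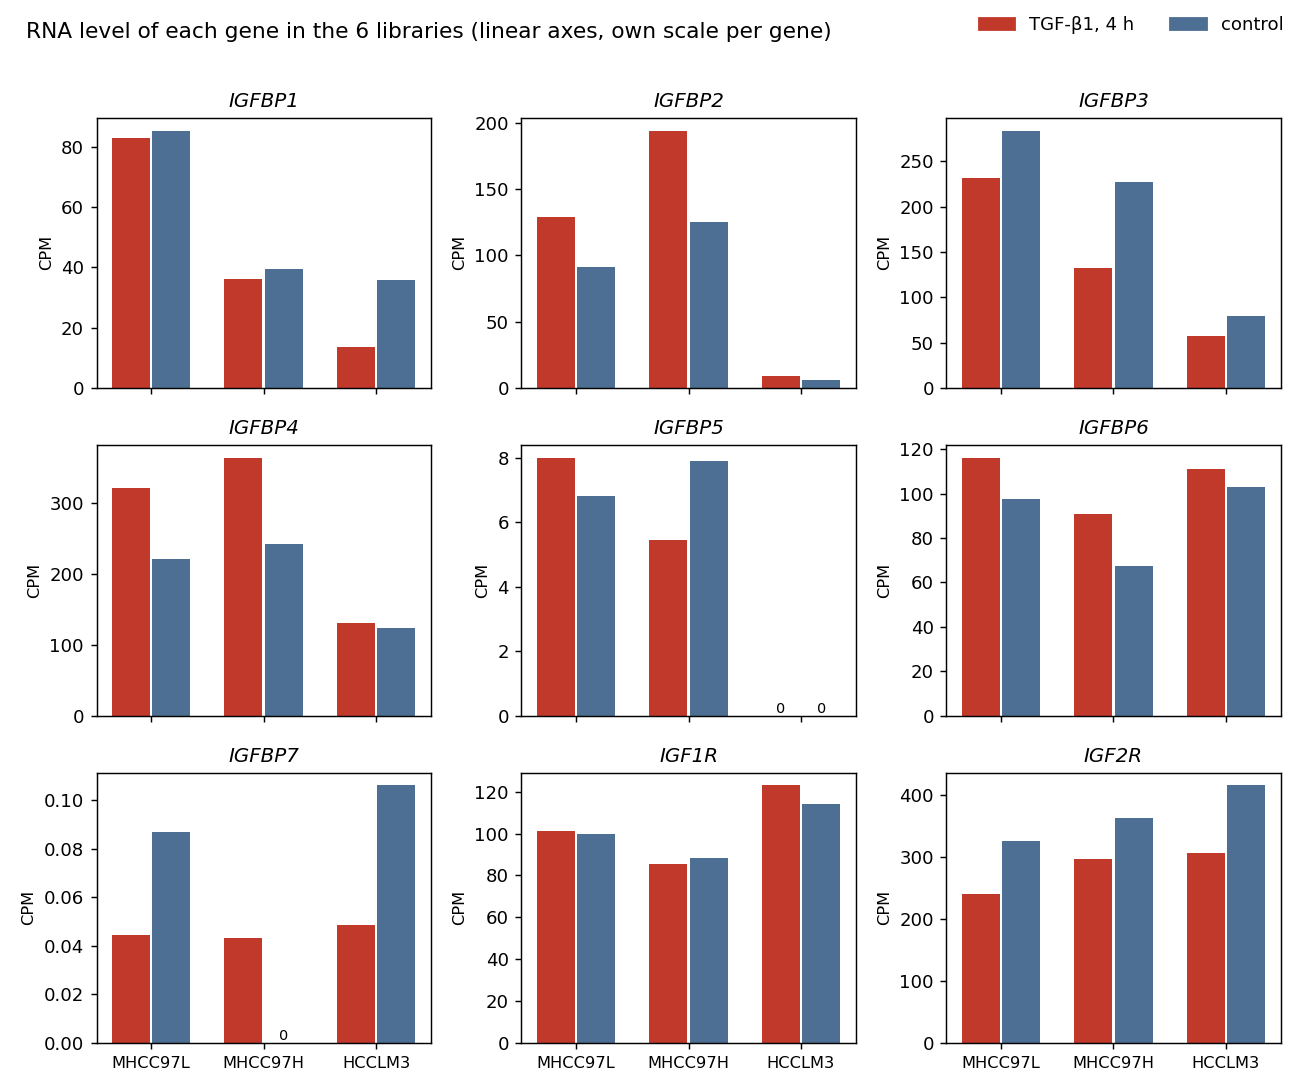
Level of each gene in CPM (vertical axis, linear, from 0, its own scale in each panel) in the TGF-β1 library (red, left) and the control library (blue, right) of each line, 1 library per bar. IGF2R is lower in the TGF-β1 library of every line, IGFBP2 is at 8.81 and 5.89 CPM in HCCLM3, and IGFBP5 is at 0 there.

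With TGF-β1, 4 of the 8 tested genes passed the threshold: IGFBP2 and IGFBP4 were higher, and IGFBP3 and IGF2R were lower. In the same comparison 14.4% of all tested genes were called, 7.79% higher and 6.65% lower. The changes were small, between 1.31-fold and 1.48-fold, and 8.46% of tested genes had a larger change than IGFBP2, the largest of the called members. The median change of the 8 genes was -0.06 on the log2 scale, beside -0.003 over all tested genes. With library totals in place of TMM the median of all genes shifted to -0.053, a smaller amount than any of the called changes.

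IGFBP2, a binding protein abundant in serum that can also bind integrins, was at 129, 194 and 8.81 CPM in the TGF-β1 libraries of MHCC97L, MHCC97H and HCCLM3, against 91.2, 125 and 5.89 CPM in their control libraries. It was higher with TGF-β1 in 3 of 3 lines, and the conditions overlapped across lines because HCCLM3 was low in both. The change was 0.57 (SE 0.0709, adjusted p 0.00146), a 1.48-fold rise. The counting intervals of the lines overlapped, with log2 changes of 0.50 in MHCC97L (interval 0.42 to 0.59), 0.63 in MHCC97H (0.56 to 0.70) and 0.57 in HCCLM3 (0.23 to 0.93), where 182 counts stood against 111. Without the line term the adjusted p of IGFBP2 was 0.923, and it was called in the other 10 alternative settings, the 3 that leave out a line included.

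IGFBP4, which holds IGFs inactive until PAPPA cleaves it, was at 321, 363 and 130 CPM in the TGF-β1 libraries of MHCC97L, MHCC97H and HCCLM3, against 220, 242 and 124 CPM in their control libraries. Both MHCC97 lines were higher with TGF-β1, by 0.55 (0.49 to 0.60) in MHCC97L and 0.58 (0.53 to 0.63) in MHCC97H, while the change in HCCLM3 was 0.07 with an interval of -0.01 to 0.15. Over the 3 lines the change was 0.40 (SE 0.103, adjusted p 0.0373), a 1.32-fold rise. This call was lost with library totals (adjusted p 0.0644), without MHCC97L (0.263), without MHCC97H (0.135) and without the line term (0.750); over the alternatives its adjusted p ran from 2.57e-05 to 0.75.

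IGFBP3, the main carrier of IGFs in serum, was at 232, 133 and 57.9 CPM in the TGF-β1 libraries of MHCC97L, MHCC97H and HCCLM3, against 284, 227 and 79.6 CPM in their control libraries. It was lower with TGF-β1 in every line, most in MHCC97H at 58.6% of control, then HCCLM3 at 72.8% and MHCC97L at 81.7%. The counting intervals of MHCC97H (-0.84 to -0.71 on the log2 scale) and MHCC97L (-0.34 to -0.24) did not overlap. The fitted change was -0.51 (SE 0.0923, adjusted p 0.00943), to 0.703 of control. Without HCCLM3 the adjusted p was 0.0581 with a change of -0.53, and without the line term it was 0.841; over the alternatives it ran from 3.97e-05 to 0.841.

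IGF2R was the single gene of the 8 whose TGF-β1 and control libraries did not overlap, as was the case for 18% of all tested genes in either direction. It was at 240, 296 and 306 CPM in the TGF-β1 libraries of MHCC97L, MHCC97H and HCCLM3, against 326, 362 and 415 CPM in their control libraries. The mean was 280 ± 35.5 CPM with TGF-β1 and 368 ± 45.1 CPM in control (SD, n = 3 each). The change was -0.39 (SE 0.0654, adjusted p 0.00655), to 0.762 of control, with log2 changes of -0.44 in MHCC97L, -0.29 in MHCC97H and -0.44 in HCCLM3. Without MHCC97L the adjusted p was 0.138 with a change of -0.37, and without the line term it was 0.346; over the alternatives it ran from 8.91e-06 to 0.346.

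IGF1R, the signalling receptor, was at 101, 85.7 and 123 CPM in the TGF-β1 libraries of MHCC97L, MHCC97H and HCCLM3, against 99.8, 88.5 and 114 CPM in their control libraries. Its change was 0.03 (SE 0.0664, adjusted p 0.821), and 90.8% of tested genes had a larger one. Its sign was not stable: it was -0.02 with library totals or without HCCLM3. The ratio of IGF2R to IGF1R per kb of exon was 1.85, 2.70 and 1.94 in the TGF-β1 libraries of MHCC97L, MHCC97H and HCCLM3, against 2.55, 3.20 and 2.83 in their control libraries. It was lower with TGF-β1 in each line, and the conditions overlapped through the TGF-β1 library of MHCC97H.

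IGFBP6, which prefers IGF2 over IGF1, was at 116, 90.8 and 111 CPM in the TGF-β1 libraries of MHCC97L, MHCC97H and HCCLM3, against 97.4, 67.3 and 103 CPM in their control libraries. It was higher in 3 of 3 lines, with log2 changes of 0.25 (MHCC97L), 0.43 (MHCC97H) and 0.10 (HCCLM3), and did not pass the threshold (change 0.26, SE 0.0783, adjusted p 0.0591). Without HCCLM3 it passed (0.33, adjusted p 0.00404), whereas it did not without MHCC97H (0.17, adjusted p 0.266) or without MHCC97L (0.27, adjusted p 0.341). IGFBP5, which binds extracellular matrix as well as IGFs, was at 8 and 5.45 CPM in the TGF-β1 libraries of MHCC97L and MHCC97H, against 6.83 and 7.91 CPM in their control libraries. Its changes ran opposite ways, 0.22 in MHCC97L (interval -0.09 to 0.55) and -0.53 in MHCC97H (-0.88 to -0.19), and the fitted value was -0.14 (SE 0.210, adjusted p 0.701).

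IGFBP7, whose affinity for IGFs is low, had 1 count in each TGF-β1 library, against 2 counts, after rounding, in the control libraries of MHCC97L and HCCLM3 and 0 in that of MHCC97H. All 6 libraries were under the 3 counts that a count of 0 allows, 0.129 to 0.159 CPM, so no fold is given between conditions or lines.

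**Figure D2:**
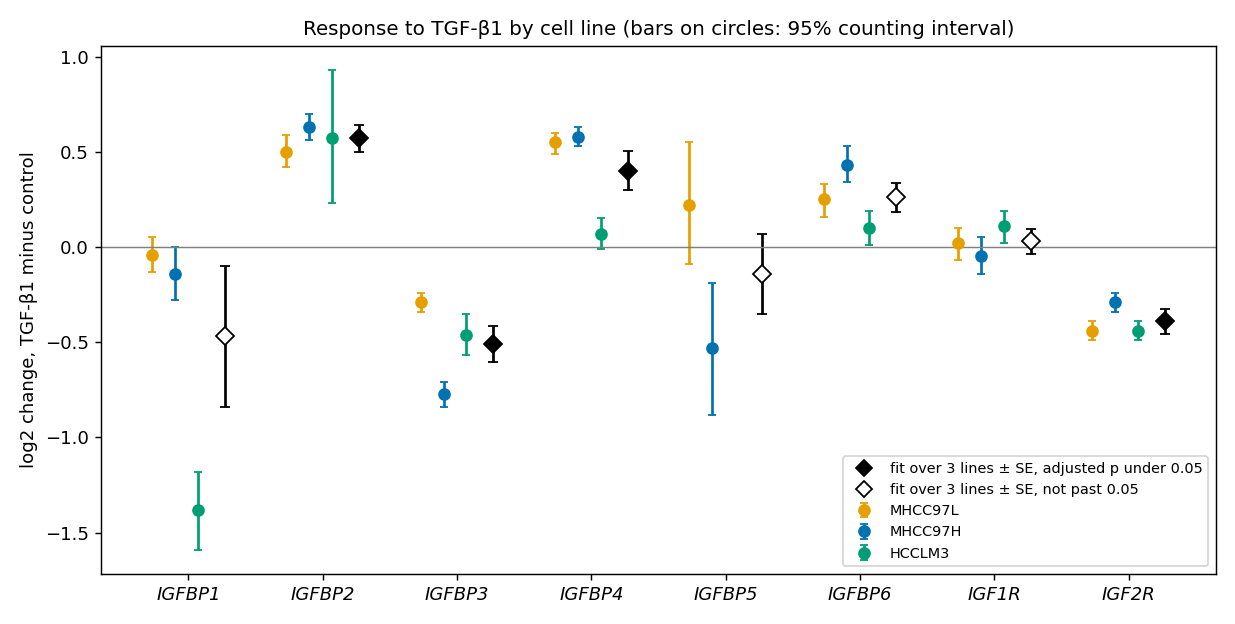
Change with TGF-β1 (log2, TGF-β1 minus control, vertical axis) of the 8 tested genes. Circles are single lines with 95% counting intervals, and diamonds are the fit over 3 lines ± SE, filled where the adjusted p is under 0.05. IGFBP1 in HCCLM3, at -1.38, lies far below the other lines.

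IGFBP1, made by the liver and held down by insulin, had the largest difference of response between HCCLM3 and the MHCC97 lines. It was at 82.9, 36 and 13.7 CPM in the TGF-β1 libraries of MHCC97L, MHCC97H and HCCLM3, against 85.3, 39.6 and 35.7 CPM in their control libraries. In HCCLM3 it stood at 38.4% of control, with 282 counts against 672 and a change of -1.38 (interval -1.59 to -1.18). In that line 0.479% of genes at 5 CPM or more were lower by 2-fold or more. In MHCC97L (-0.04, interval -0.13 to 0.05) and MHCC97H (-0.14, interval -0.28 to 0.00) the change was within or at the edge of counting error. The fit over 3 lines gave -0.47 (SE 0.368, adjusted p 0.502), the largest SE of the 8 genes.

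The difference of responses was tested as an interaction of treatment with HCCLM3, in which MHCC97L and MHCC97H stand as replicates of a response and 1 residual degree of freedom is left. Of the 8 genes, 2 were called, IGFBP1 and IGFBP4, both lower, beside 1.59% of all tested genes (0.769% higher, 0.818% lower). The response of HCCLM3 minus that of the MHCC97 pair was -1.30 for IGFBP1 (SE 0.152, adjusted p 1.5e-05) and -0.49 for IGFBP4 (SE 0.114, adjusted p 0.025). IGFBP1 was also called with library totals (-1.33, adjusted p 0.00051), with DESeq2 (-1.29, adjusted p 0.0224) and with limma-voom (-1.30, adjusted p 0.00119), the tools added after seeing the data. IGFBP4 was called with library totals (-0.52, adjusted p 0.0462) but not with DESeq2 (-0.48, adjusted p 0.819) or limma-voom (-0.49, adjusted p 0.064). The difference was not past the threshold for IGFBP6 (-0.24, SE 0.126, adjusted p 0.403), IGF1R (0.12, SE 0.121, 0.715), IGF2R (-0.08, SE 0.113, 0.821), IGFBP3 (0.07, SE 0.253, 0.947) and IGFBP2 (0.01, SE 0.179, 0.988), and none could be estimated for IGFBP5. The HCCLM3 response is a single pair of libraries. Its spread is taken from the MHCC97 pair and moderated by that of the other genes, so the p assumes that HCCLM3 varies as the MHCC97 lines do. A difference of the line and a difference of its libraries cannot be told apart.

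Between lines, IGFBP1 to IGFBP5 each had their lowest level in HCCLM3, in both conditions, and IGFBP6 and the receptors did not. The share of all genes with that order was not counted. For IGFBP1 the margin in control was small, 35.7 CPM in HCCLM3 against 39.6 CPM in MHCC97H. IGFBP5, which passed the filter through the MHCC97 libraries, is left out of the counts that follow, over the other 7 tested genes. HCCLM3 minus MHCC97L gave calls for 4 of the 7 (1 higher, 3 lower), beside 29.8% of all tested genes (15% higher, 14.8% lower). HCCLM3 minus MHCC97H gave calls for 5 (2 higher, 3 lower), beside 27.2% (13.3% higher, 13.9% lower), and MHCC97H minus MHCC97L for 2 (1 higher, 1 lower), beside 2.45% (1.37% higher, 1.09% lower). The median difference of the 7 genes was -1.06 for HCCLM3 minus MHCC97L and -0.70 for HCCLM3 minus MHCC97H, beside -0.003 and 0.001 over all tested genes. The first 2 of these comparisons share the HCCLM3 libraries. The mean and SD given below for a line are over its TGF-β1 and its control library. Such an SD therefore holds the change with TGF-β1 and is not a spread of replicates.

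IGFBP5 had 0 counts in both libraries of HCCLM3, against 337 counts in MHCC97L and 293 in MHCC97H. Set against 3 counts over both HCCLM3 libraries, which is 0.076 CPM, IGFBP5 was at least 97.5-fold lower in HCCLM3 than in MHCC97L and at least 87.1-fold lower than in MHCC97H. No p is given for it, since it passed the count filter through the lines in which it is higher. Its neighbour on chromosome 2, IGFBP2, was also low in HCCLM3, at 7.35 ± 2.06 CPM. IGFBP2 was at 110 ± 27 CPM in MHCC97L and 160 ± 48.2 CPM in MHCC97H (SD of the TGF-β1 and control library, n = 2 each). IGFBP2 was 15.1-fold lower in HCCLM3 than in MHCC97L (-3.91, SE 0.0975, adjusted p 1e-07) and 21.6-fold lower than in MHCC97H (-4.43, SE 0.0986, adjusted p 8.35e-08). In these comparisons 0.945% and 0.585% of tested genes differed by more than IGFBP2. Between the other lines IGFBP2 was higher in MHCC97H than in MHCC97L (0.52, SE 0.0799, adjusted p 0.014), a call lost in 4 of 14 alternatives, whereas IGFBP5 was at 6.68 CPM in MHCC97H and 7.41 CPM in MHCC97L, with no call (-0.16, adjusted p 0.775).

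The pair on chromosome 7, IGFBP3 and IGFBP1, was also lowest in HCCLM3. So was IGFBP4, which has no neighbour among the 9 genes. Whether place on the chromosome has a part in these levels was not tested. IGFBP3 was at 68.8 ± 15.3 CPM in HCCLM3, 258 ± 36.7 CPM in MHCC97L and 180 ± 66.7 CPM in MHCC97H (SD of the TGF-β1 and control library, n = 2 each). It was 3.79-fold lower in HCCLM3 than in MHCC97L (-1.92, SE 0.116, adjusted p 8.94e-06) and 2.57-fold lower than in MHCC97H (-1.36, SE 0.115, adjusted p 6.04e-05). IGFBP3 was also lower in MHCC97H than in MHCC97L (-0.56, SE 0.112, adjusted p 0.0401), but this call was lost in 10 of 14 alternatives, where the adjusted p reached 0.843. IGFBP1 was at 24.7 ± 15.6 CPM in HCCLM3, 37.8 ± 2.51 CPM in MHCC97H and 84.1 ± 1.69 CPM in MHCC97L (SD of the TGF-β1 and control library, n = 2 each). None of its differences was called: -1.86 for HCCLM3 minus MHCC97L (SE 0.460, adjusted p 0.0933), -0.70 for HCCLM3 minus MHCC97H (SE 0.460, 0.402) and -1.16 for MHCC97H minus MHCC97L (SE 0.439, 0.404). The HCCLM3 libraries were unequal, and their spread enters the SE of each of these differences. Without the TGF-β1 library of HCCLM3, IGFBP1 was at -1.28 for HCCLM3 minus MHCC97L and at -1.15 for MHCC97H minus MHCC97L. Without the control library of HCCLM3 these were -2.56 and -1.15. HCCLM3 minus MHCC97H was -0.12 without the TGF-β1 library of HCCLM3 and -1.41 without its control library. HCCLM3 is then a single library whose spread is taken from the MHCC97 lines, so no p is given for these fits. With all 6 libraries, DESeq2 called the difference of HCCLM3 and MHCC97L, at -1.88 (adjusted p 0.00176). So did limma-voom (-1.89, adjusted p 0.00174) and edgeR without robust fitting (-1.86, adjusted p 0.00214). In these settings IGFBP1 was not called for the other pairs of lines.

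IGFBP4 was at 127 ± 4.56 CPM in HCCLM3, against 271 ± 71.6 CPM in MHCC97L and 302 ± 85.2 CPM in MHCC97H (SD of the TGF-β1 and control library, n = 2 each). It was 2.09-fold lower in HCCLM3 than in MHCC97L (-1.06, SE 0.127, adjusted p 0.000549) and 2.33-fold lower than in MHCC97H (-1.22, SE 0.127, adjusted p 0.000334). The MHCC97 lines did not differ past the threshold (0.16, SE 0.124, adjusted p 0.613). IGFBP6 did not share this fall: it was at 107 ± 5.17 CPM in HCCLM3, 79.1 ± 16.7 CPM in MHCC97H and 107 ± 12.9 CPM in MHCC97L. HCCLM3 was higher than MHCC97H by 0.45 (SE 0.0963, adjusted p 0.0083), a call lost without the control library of MHCC97H (0.0645) or without the treatment term (0.172), and the difference from MHCC97L was 0.01 (SE 0.0956, adjusted p 0.944), with a sign that turned under 3 alternatives. MHCC97H minus MHCC97L was -0.44 (SE 0.096, adjusted p 0.0547), not past the threshold, and was called in 4 of 14 alternatives.

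The receptors were highest in HCCLM3, by small amounts. IGF1R was at 119 ± 6.22 CPM in HCCLM3, 87.1 ± 1.96 CPM in MHCC97H and 100 ± 0.947 CPM in MHCC97L (SD of the TGF-β1 and control library, n = 2 each). It was 1.36-fold higher in HCCLM3 than in MHCC97H (0.45, SE 0.0815, adjusted p 0.00369), a call that held under all 14 alternatives, and 1.18-fold higher than in MHCC97L without passing (0.24, SE 0.0812, adjusted p 0.0519), a difference called in 5 of 14 alternatives. MHCC97H minus MHCC97L was -0.21 (SE 0.0814, adjusted p 0.261). IGF2R was at 361 ± 77.6 CPM in HCCLM3, 329 ± 47 CPM in MHCC97H and 283 ± 60.7 CPM in MHCC97L. It was higher in HCCLM3 than in MHCC97L (0.35, SE 0.080, adjusted p 0.0103), a call lost without the TGF-β1 library of MHCC97L (0.263), without its control library (0.151) or without the treatment term (0.359). Its differences for HCCLM3 minus MHCC97H (0.12, adjusted p 0.308) and MHCC97H minus MHCC97L (0.23, adjusted p 0.206) were not past the threshold.

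Of the 13 hepatocyte markers, 12 were lowest in HCCLM3 in both conditions, but the share of all genes with that order was not counted. Margins ran from small to large. TTR was at 0.533 CPM (TGF-β1) and 0.531 CPM (control) in HCCLM3, against 0.73 to 0.755 CPM (TGF-β1) and 0.566 to 0.619 CPM (control) in the MHCC97 lines. AFP was at 3.24 CPM in both HCCLM3 libraries, against 5.28 to 5.29 CPM (TGF-β1) and 4.05 to 5 CPM (control) in the MHCC97 lines. SERPINA1 was at 0.968 CPM (TGF-β1) and 0.85 CPM (control) in HCCLM3, against 49.1 to 114 CPM (TGF-β1) and 28.5 to 54.2 CPM (control) in the MHCC97 lines, and ALB at 1.26 CPM (TGF-β1) and 1.43 CPM (control) in HCCLM3, against 12.4 to 22.5 CPM (TGF-β1) and 8.87 to 22.9 CPM (control) in the MHCC97 lines. The sum of the 13 hepatocyte markers, which is mostly KRT8 and KRT18, was 6627 CPM (TGF-β1) and 5964 CPM (control) in HCCLM3, against 9464 to 9473 CPM (TGF-β1) and 7001 to 7824 CPM (control) in the MHCC97 lines. It was also higher with TGF-β1 in each line. Of the 9 stellate cell and fibroblast markers, COL3A1, DCN and LUM were highest in HCCLM3 in both conditions and PDGFRB and RGS5 lowest, and their sum was 33.8 CPM (TGF-β1) and 34.7 CPM (control) in HCCLM3, against 12.7 to 15.2 CPM (TGF-β1) and 11.7 to 14.3 CPM (control) in the MHCC97 lines. The part of these markers in the differences of the binding proteins was not tested, and in bulk RNA fewer cells that make a transcript cannot be told apart from less of it per cell.

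**Figure D3:**
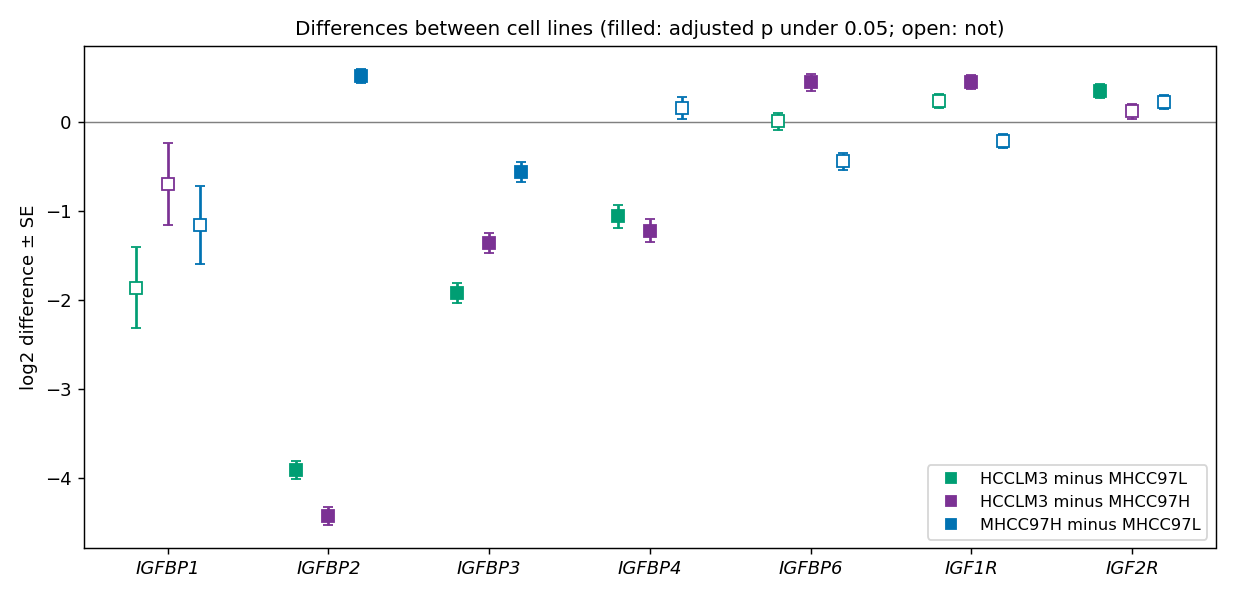
Differences between lines (log2 ± SE, vertical axis; the line named first minus the other) of the 7 tested genes with a count in every line, filled where the adjusted p is under 0.05. IGFBP2 lies at -3.91 and -4.43 in the comparisons with HCCLM3, and IGFBP3 and IGFBP4 lie below 0 in both.

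Summed per kb of exon, the 7 binding proteins came to 361, 325 and 164 CPM per kb in the TGF-β1 libraries of MHCC97L, MHCC97H and HCCLM3, against 306, 261 and 173 CPM per kb in their control libraries. The sum was higher with TGF-β1 in both MHCC97 lines and lower in HCCLM3. In the same order of lines, IGFBP4 took 40.4%, 50.7% and 36% of it in the TGF-β1 libraries and 32.7%, 42.1% and 32.4% in the control libraries, so its share was higher with TGF-β1 in each line, that of HCCLM3 included. IGFBP3 took 14.1%, 8.97% and 7.72% in the TGF-β1 libraries, against 20.3%, 19% and 10.1% in the control libraries. With the longest transcript as length, IGFBP3 took 22.8%, 15.2% and 12.8% with TGF-β1 and 31.5%, 29.9% and 16.5% in control, and in the MHCC97L control it then stood above IGFBP4 (26.8%). In HCCLM3 the largest share was that of IGFBP6, at 50.1% with TGF-β1 and 44.3% in control, against 20.8% to 23.8% (TGF-β1) and 19.1% to 23.6% (control) in the MHCC97 lines. IGFBP1 took 5.03% with TGF-β1 and 12.5% in control in HCCLM3. A share depends on all 7 genes, and these are descriptions with no test.

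**Figure D4:**
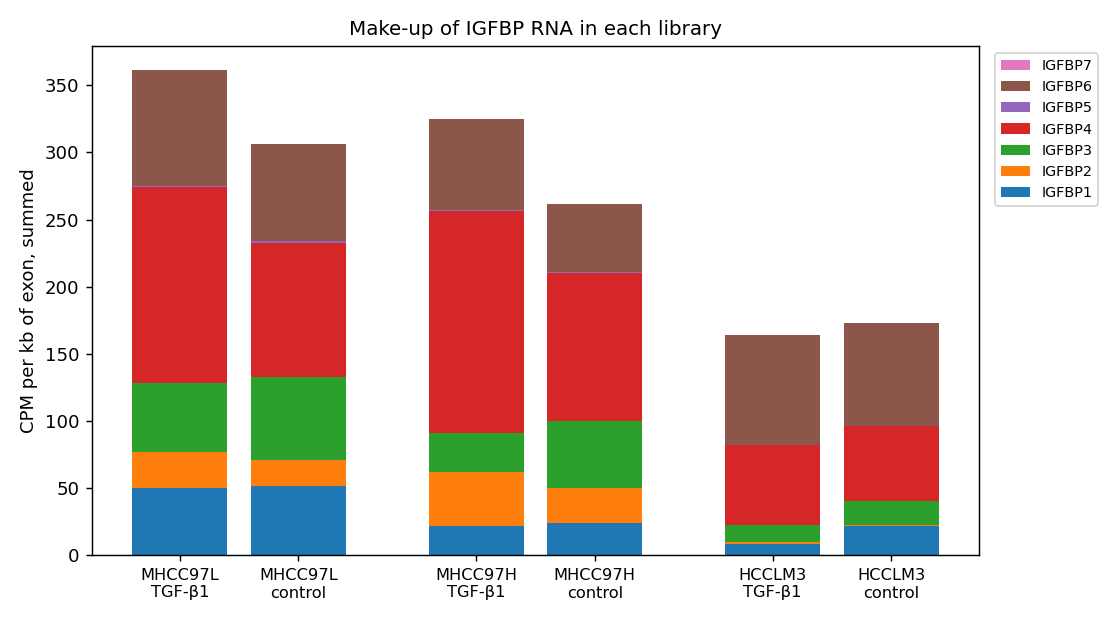
Summed level of the 7 binding proteins in CPM per kb of exon (vertical axis, from 0), stacked by gene, in the TGF-β1 and control library of each line. HCCLM3 has the lowest sums, 164 with TGF-β1 and 173 in control, and IGFBP6 makes up the largest part of them.

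The other genes of the pathway were taken from a list of 50, of which 41 passed the filter. Of these, 2 were called higher and 6 lower with TGF-β1, beside 7.79% and 6.65% of all tested genes, and their median change was 0.00, beside -0.003 over all tested genes. The ligands were barely present: IGF1 was at 0.172 to 0.267 CPM in the TGF-β1 libraries and 0.0435 to 0.319 CPM in the control libraries, and IGF2 at 0.0968 to 0.644 CPM with TGF-β1 and 0.0531 to 0.381 CPM in control. INS was at 0 in all 6 libraries, which allows up to 0.129 to 0.159 CPM. IGF2 and INS overlap the read-through gene INS-IGF2, so reads in any stretch that they share with it may not be told apart. IGFALS, the third member of the serum complex, was at 0.0484 to 0.601 CPM with TGF-β1 and 0.266 to 0.522 CPM in control (-0.32, SE 0.520, adjusted p 0.727). PAPPA, which cleaves IGFBP4, and PAPPA2, which cleaves IGFBP5, did not pass the filter. Of the 5 tested proteases 0 were called by edgeR, DESeq2 or limma-voom, beside 14.4% of all tested genes in edgeR, and 3 had an unadjusted p under 0.05 in edgeR.

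GRB10, an adaptor that binds the insulin and IGF1 receptors and damps their signal, had the largest called change of the list. It was at 379, 426 and 829 CPM in the TGF-β1 libraries of MHCC97L, MHCC97H and HCCLM3, against 178, 194 and 496 CPM in their control libraries. The change was 0.99 (SE 0.0861, adjusted p 0.000265). STC2, a secreted inhibitor of PAPPA, was at 23.6, 21.4 and 36.6 CPM in the TGF-β1 libraries, against 40.6, 34.1 and 57.6 CPM in the control libraries of the same lines (-0.70, SE 0.0756, adjusted p 0.000755).

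The docking protein IRS1 was at 58, 71 and 124 CPM in the TGF-β1 libraries of MHCC97L, MHCC97H and HCCLM3, against 81.4, 88.7 and 156 CPM in their control libraries (-0.38, SE 0.0685, adjusted p 0.0091). INSR, the insulin receptor, which can also pair with IGF1R, was at 45.2, 43 and 29.3 CPM in the TGF-β1 libraries, against 54.7, 57.3 and 38.1 CPM in the control libraries (-0.36, SE 0.0727, adjusted p 0.015). Both were lower with TGF-β1 in all 3 lines. Of the 16 PI3K, AKT and FOXO genes, RHEB, which activates mTOR, was higher (0.29, SE 0.0673, adjusted p 0.025). MTOR (-0.31, SE 0.0661, 0.0186) and the PI3K subunits PIK3CB (-0.32, SE 0.0744, 0.0238) and PIK3R1 (-0.30, SE 0.0842, 0.0475) were lower. MTOR overlaps ANGPTL7, and PIK3CB had fractional counts.

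**Figure D5:**
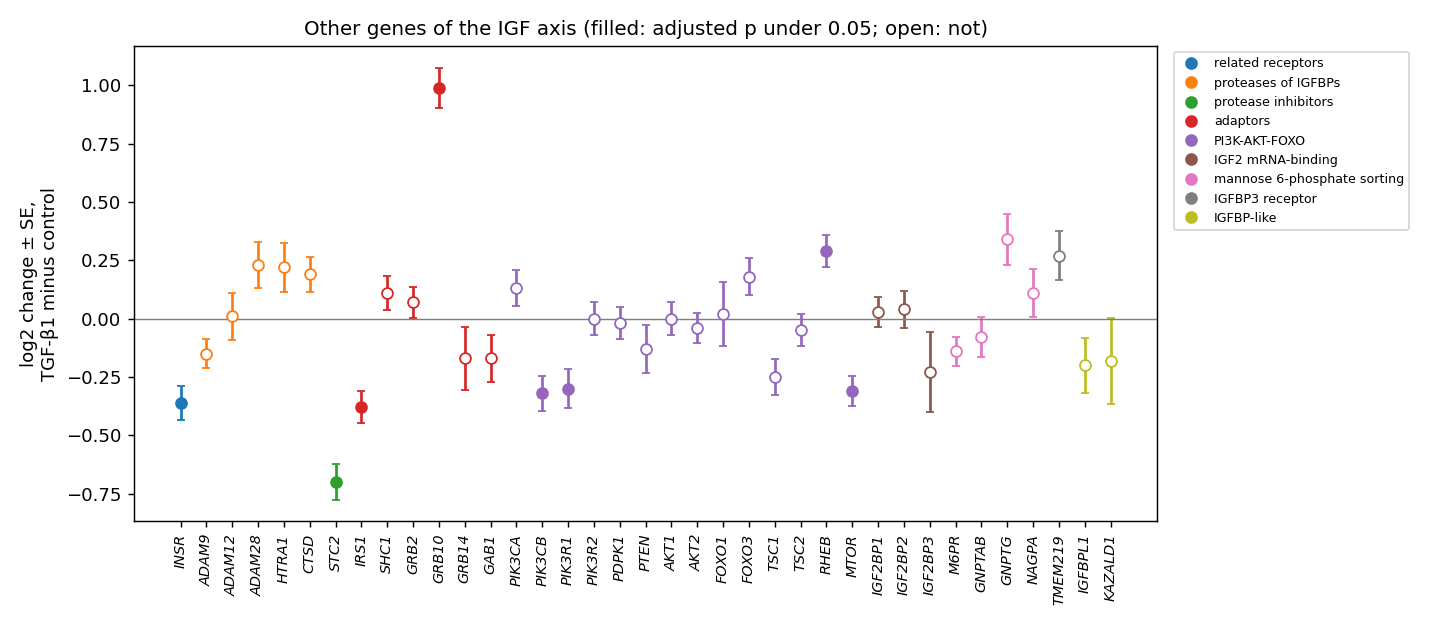
Change with TGF-β1 (log2 ± SE over 3 lines, vertical axis) of the tested genes of the pathway list with a mean of 5 CPM or more, coloured by role and filled where the adjusted p is under 0.05. GRB10 stands highest at 0.99 and STC2 lowest at -0.70.

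None of the 41 was called by edgeR, DESeq2 or limma-voom in the interaction with HCCLM3 (8 had an unadjusted p under 0.05 in edgeR) or for MHCC97H minus MHCC97L (7 had one). Over all tested genes 1.59% and 2.45% were called in these comparisons, so a count of 0 among 41 lies near the background. HCCLM3 differed from MHCC97L in 20 of them (11 higher, 9 lower), beside 29.8% of all tested genes, and from MHCC97H in 21 (11 higher, 10 lower), beside 27.2%, and the medians were 0.11 and 0.10.

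Likeness of pattern was measured as the root mean square difference of centred log2 CPM over the 6 libraries, among 10439 named genes whose mean was at least 5 CPM. Among the genes nearest to IGFBP2 were SULF2 (0.131) and FAM20C (0.239), and the nearest to IGFBP3 were KCNQ3 (0.103), RBPMS2 (0.134) and ITPR1 (0.142). IGFBP4 was closest to THBD (0.0821), GLTPD2 (0.125) and PC (0.134). The nearest genes to IGFBP1 were farther off, ITGAX (0.328), CBSL (0.354) and PPL (0.374), and CBSL is a near copy of CBS, so its count is uncertain. IGFBP6 was closest to SFN (0.0304), HHLA3 (0.0579) and IER5 (0.0583), IGF1R to KDM3A (0.012), IDS (0.0248) and RUVBL1 (0.0305), and IGF2R to FBXO10 (0.0531), SEC16B (0.0558) and HEATR6 (0.059). A gene's own distance from a flat pattern was 1.99 for IGFBP2 and 0.186 for IGF1R, and small distances between genes that vary little carry less. Among the 7 genes themselves the closest pairs were IGFBP6 with IGF1R (0.189) and IGF1R with IGF2R (0.286), IGFBP1 with IGFBP3 stood at 0.432, and the farthest pair was IGFBP2 with IGF1R (2.16).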

How the data were processed

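For each of the 6 libraries the authors deposited a file of expected counts by Ensembl gene ID. Per the submitters' processing notes, Cuffdiff 1.3.0, Cufflinks 2.2.1, TopHat2 2.1.1 and the build hg38 were used, with no roles given; the sources used here do not name the tool that counted reads. In each library 63.6% to 64.6% of values were whole numbers, and the others had decimals, from which the unit of expected counts was read. Symbols, lengths and coordinates came from the reference gene names and GENCODE 29 and matched 19574 IDs; the other 2517 stayed in the fit under their IDs.

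The deposited expected counts were rounded, which changed a total by at most 134.1 counts. Genes were kept by edgeR's filterByExpr on the treatment groups, and libraries were scaled by TMM (factors 0.971 to 1.029). The fit used edgeR 4.0.16 in R 4.3.3 (glmQLFit, robust) with line and treatment as terms and 2 residual degrees of freedom. Alternatives used DESeq2 1.42.0 and limma 3.58.1, other scalings, no filter, other terms and each library or line left out; plots used Python 3.11.15 and matplotlib 3.10.9. The fits were also run on counts simulated from the fitted means and dispersions. Such a run cannot show whether these few libraries are enough. CPM are counts scaled by the TMM library sizes, and log2 changes within a line have a prior count of 2.

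The labels give each line with and without ligand, so line pairs the libraries. Across genes, a line's TGF-β1 library and its control library deviated together from the means of their conditions, with correlations of 0.587 in MHCC97L, 0.456 in MHCC97H and 0.728 in HCCLM3. Depth was 18485041 to 23242862 counts, and 3 counts are 0.129 to 0.159 CPM. The sources used here do not state whether molecular identifiers were used, and intervals and floors cover counting error alone.

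The genes, the pathway list, the marker lists and the tests were chosen with earlier results of these data known. The rule names the 9 genes in every comparison; IGFBP7, under the floor in each library, has counts but no differences. Of the pathway list it names genes called for TGF-β1, the ligands, INSR and IGFALS, and those that differ 4-fold or more between lines. The most alike genes are the 3 nearest to each of the 9 with a mean of 5 CPM or more. Some items that these rules name are not reported here. PAPPA, PAPPA2 and the markers with values were named after their values were seen. No sequence was read for IGFBP1 and IGFBP7.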

Additional observations from a re-analysis of the deposited data

Results flagged for a closer look

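The response of IGFBP1 to TGF-β1 differed between HCCLM3 and the MHCC97 pair by -1.3 on the log2 scale (HCCLM3 minus the pair; edgeR interaction test, adjusted p 1.5e-05). In HCCLM3 the TGF-β1 library had 282 counts and the control library 672. MHCC97L had 1865 counts with TGF-β1 and 1960 in control, and MHCC97H had 839 with TGF-β1 and 831 in control. The HCCLM3 response is a single pair of libraries. The p of this test and the next therefore rests on the spread between the responses of MHCC97L and MHCC97H, moderated by that of the other genes. It assumes that HCCLM3 varies as MHCC97L and MHCC97H do. Whether the difference belongs to the line or to 1 of its libraries was not tested.

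The response of IGFBP4 differed in the same test by -0.49 (adjusted p 0.025). IGFBP4 had 2685 counts with TGF-β1 and 2327 in control in HCCLM3, 7233 with TGF-β1 and 5059 in control in MHCC97L, and 8440 with TGF-β1 and 5081 in control in MHCC97H. The difference was not called by DESeq2 (adjusted p 0.819) or limma-voom (adjusted p 0.064).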

How the results depend on the processing

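The line term carries the TGF-β1 result. With no replicate block (treatment as the only term, so that the pairing by line is not used) 10 genes were called in place of 2047, and 0 of the 8 tested members in place of 4. Leaving out 1 line gave 611 to 3971 genes and 2 members at the lowest (without MHCC97L). The share of calls that were higher was 53.9%, 44.2% with upper-quartile scaling and 37.2% with library totals. The change of IGF1R turned to 0.00 with upper-quartile scaling and to -0.02 with library totals, and ran from -0.02 to 0.06 with 1 line left out; that of IGFBP5 ran from -0.53 to 0.22, positive without MHCC97H.

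For MHCC97H minus MHCC97L, 348 genes and 2 members were called, against 2 and 0 with no treatment term and 96 to 1486 and 0 to 4 with 1 library left out. Library totals, no count filter, limma-voom and non-robust fitting gave 1 member each, and DESeq2 gave 3, with IGFBP6 added (-0.44, adjusted p 0.0188). IGFBP5 ran from -0.55 to 0.21 with 1 library left out, positive without the TGF-β1 library of MHCC97L or of MHCC97H. With no treatment term 1780 genes were called for HCCLM3 minus MHCC97L in place of 4229, and 1440 for HCCLM3 minus MHCC97H in place of 3849. For the first of these, leaving out 1 library gave 2060 (without the TGF-β1 library of MHCC97L) to 4643 genes. IGFBP6 in it turned to -0.01 with upper-quartile scaling and ran from -0.10 (without the control library of HCCLM3) to 0.13 with 1 library left out. A line left with 1 library is assumed to vary like the others.

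The interaction called 225 genes, 136 with library totals and 21 with DESeq2; DESeq2 and limma-voom each called 1 member in place of 2. IGFBP2 turned to -0.01 with library totals. The cause of these shifts was not tested. MHCC97L or MHCC97H alone as the partner of HCCLM3 was not run, since no residual degree of freedom is left. The precision of IGFBP5, IGFBP7 and IGFBP2 in HCCLM3 is limited by their low counts.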
